A study of Mus musculus with 23 samples.

Results

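Arntl, Clock and Npas2 encode the activating transcription factors of the circadian clock, and their RNA was followed here in the nucleus accumbens of mice injected with a virus against Nr1d1. They were chosen by name, as the activating arm that the Nr1d1 product REV-ERBα represses, and make up 3 of the 22180 genes that had a probe set with a single gene symbol on the array. Each of the 3 genes had 1 such probe set, and so did Nr1d1, so no choice between probe sets was needed. In build GRCm38.p6 of the RefSeq gene table, Arntl lies at chr7:113178471-113314126, Clock at chr5:76209868-76305603, Npas2 at chr1:39193702-39363240 and Nr1d1 at chr11:98767932-98775377, and all 4 are protein-coding.

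The series holds 23 arrays of total RNA from micropunches of the nucleus accumbens, the reward region of the lower striatum, taken from C57BL/6 mice (C57BL/6J in the growth protocol). All mice were about 15 weeks old, and all had received an adeno-associated virus (AAV) into the nucleus accumbens about 5 weeks earlier, so the controls were injected animals too. The virus carried a short hairpin RNA against Nr1d1 in 6 males and a scrambled hairpin in 6 control males, and likewise the Nr1d1 hairpin in 6 females and the scrambled hairpin in 5 control females. Each array is stated to be a biological replicate, so the p-values below rest on the spread between mice. The same treatment text, on collection at postpartum day 7, is attached to male and female samples alike, and for that reason no use was made of the females' reproductive state. The sources used here do not give the hour of collection, the promoter of the virus or the share of infected cells.

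BMAL1, the product of Arntl, pairs with CLOCK or with its close relative NPAS2, and the pair binds E-box sequences and switches on Per, Cry, Nr1d1, Dbp and other rhythmic genes. PER and CRY proteins then block the pair, while REV-ERBα closes a second loop: it binds DNA elements that it shares with the ROR activators and represses Arntl, and Clock and Npas2 have been described as targets as well. NPAS2 is known as a forebrain factor that is abundant in the striatum. In this textbook scheme, less REV-ERBα leaves Arntl less repressed, and the comparison of the hairpin groups addresses the RNA level of the activators 5 weeks after injection.

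The promoter sequences of Arntl and Npas2 are shown because the first holds the REV-ERB and ROR element by which Arntl is best known, and the second belongs to the gene that differed most between the hairpin groups below. Both are RefSeq sequences of build GRCm38.p6, from 250 bases before the annotated transcription start to 50 after it. Capitals mark matches to ANTAGGTNA, a form of the element with 1 further letter left free. The Arntl window, the downstream of 2 annotated for the gene, lies at chr7:113207261-113207560 on the plus strand, and the Npas2 window at chr1:39194022-39194321 on the plus strand.
Arntl: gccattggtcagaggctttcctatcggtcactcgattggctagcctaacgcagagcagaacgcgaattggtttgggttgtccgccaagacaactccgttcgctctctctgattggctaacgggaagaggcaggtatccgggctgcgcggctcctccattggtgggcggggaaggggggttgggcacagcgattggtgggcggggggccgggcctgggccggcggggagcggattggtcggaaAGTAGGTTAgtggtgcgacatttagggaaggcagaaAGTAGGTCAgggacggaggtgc
Npas2: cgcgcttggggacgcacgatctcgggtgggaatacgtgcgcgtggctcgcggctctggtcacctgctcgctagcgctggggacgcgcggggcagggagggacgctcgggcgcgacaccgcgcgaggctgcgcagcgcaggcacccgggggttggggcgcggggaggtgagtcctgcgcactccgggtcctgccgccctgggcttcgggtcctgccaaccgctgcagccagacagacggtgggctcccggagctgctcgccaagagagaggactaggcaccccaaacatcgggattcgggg

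Arntl thus carried 2 matches to ANTAGGTNA, with first bases at positions -8 and 29 when the start site is counted as 1. The match at position 29 also fulfilled the stricter ANTAGGTCA. Searched on both strands, ANTAGGTCA was present in 0.664% and ANTAGGTNA in 2.04% of 32544 RefSeq windows of 300 bases, and every match to the first is also a match to the second. The Npas2 window held neither of them, nor the half-site AGGTCA, which lies within ANTAGGTCA and was present in 16.2% of the windows. Of the 3 windows annotated for Clock, on chromosome 5, 1 held AGGTCA on the reverse strand at position -119, and 0 held the longer elements. The E-box CACGTG, the site of the activators themselves and present in 7.17% of windows, was not among the letters of any window of Arntl, Clock, Npas2 or Nr1d1. A match in these letters is a description of the sequence and not a site of binding, and binding was not measured.

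Nr1d1, the gene targeted by the hairpin, is read first because it checks the labels. In males its log2 intensity had a lowest value of 9.44, a median of 9.565 and a highest value of 9.76 on the 6 arrays labelled knockdown, against 9.42, 9.495 and 9.85 on the 6 controls. In females the lowest, median and highest values were 9.73, 9.98 and 10.17 on the 6 arrays labelled knockdown, against 10.05, 10.06, 10.09, 9.93 and 10.09 on the 5 controls. The groups overlapped in both sexes. The log2 difference, knockdown minus control, was -0.01 in males (SE 0.09, exact permutation p = 0.926) and -0.05 in females (SE 0.09, exact permutation p = 0.563). The RNA of the target was therefore not measurably lower on the arrays labelled knockdown, and every direction below rests on the label alone. In micropunches, fewer cells of a type and less RNA per cell cannot be told apart, and REV-ERBα protein was not measured.

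Striatal markers were present on every array. The mean log2 intensity of the 9 measured genes of a list of 12 medium spiny neuron markers, the principal neurons of the striatum, lay between 10.34 and 10.64 in males labelled knockdown, 10.20 and 10.55 in male controls, 10.68 and 10.93 in females labelled knockdown, and 10.71 and 10.94 in female controls. The mean of 8 measured markers of cortical excitatory neurons varied far more, between 6.59 and 8.28 in males labelled knockdown, 6.45 and 8.48 in male controls, 7.64 and 8.81 in females labelled knockdown, and 7.75 and 8.69 in female controls. All 23 arrays matched the sex on their label, and 0 pairs of arrays held identical values. Array medians were 5.84 to 5.88 in males and 6.11 to 6.17 in females, and no source used here names a processing batch, so sex and any technical difference between the male and female arrays cannot be told apart in a level.

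**Figure D1:**
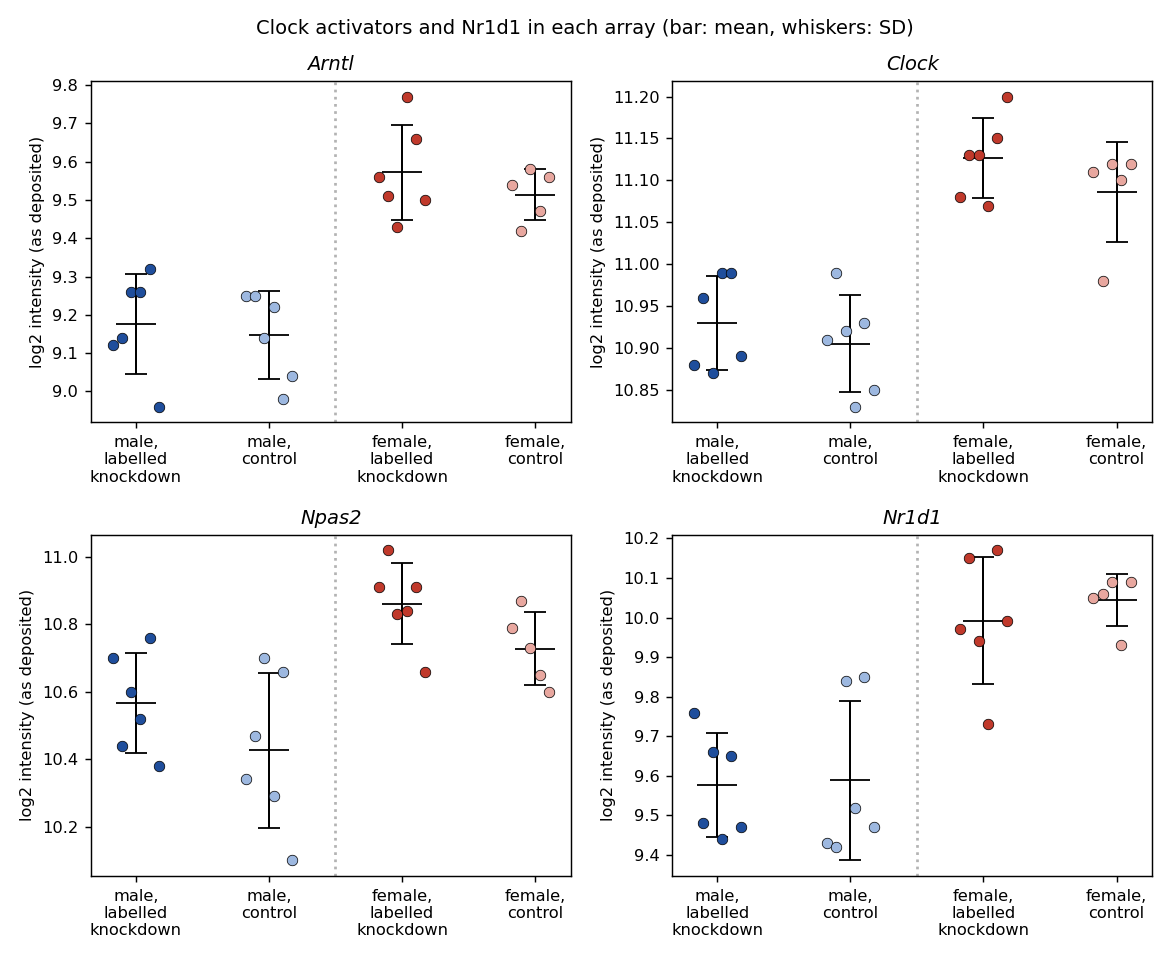
Log2 intensity as deposited (vertical axes, which do not start at 0) of Arntl, Clock, Npas2 and Nr1d1 on each of the 23 arrays, with 1 point per mouse, the group mean as a horizontal bar and its SD as whiskers. The arrays labelled knockdown overlap the controls of their sex in every panel, and Npas2 is the gene whose means lie farthest apart, at 10.57 on arrays labelled knockdown against 10.43 on controls in males, and 10.86 on arrays labelled knockdown against 10.73 on controls in females.

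No activator was called higher or lower between the hairpin groups, and Npas2 came nearest. Of the 3 genes, 0 passed the threshold of an adjusted p of 0.05 in males, in females or in the average of both sexes, and 0% of all 41345 probe sets passed it in any of these comparisons. The tests were those of limma, with Benjamini-Hochberg adjustment over all probe sets. The lowest adjusted p over the whole array was 0.1 in males, 0.252 in females and 0.184 in the average. At an unadjusted p under 0.05, 1948 probe sets (4.71%) differed in males, 2423 (5.86%) in females and 1949 (4.71%) in the average.

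Npas2, the partner of BMAL1 best known from the forebrain, had the largest difference of the 3. In males its log2 intensity was 10.38 at the lowest, 10.56 at the median and 10.76 at the highest on the arrays labelled knockdown, against 10.10, 10.405 and 10.70 on controls. In females the arrays labelled knockdown had 10.66, 10.875 and 11.02, against 10.79, 10.87, 10.73, 10.65 and 10.60 on the 5 controls. The groups overlapped in both sexes: 1 of 6 male arrays labelled knockdown lay above every male control, and 3 of 6 female ones lay above every female control, as did at least that many for 16.1% of probe sets in females. In each sex, 5 of the 6 arrays labelled knockdown were above the control mean.

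Npas2 averaged 10.57 ± 0.15 in males labelled knockdown and 10.43 ± 0.23 in male controls (SD, n = 6 each), which is 0.14 apart on the log2 scale (exact permutation p = 0.236, SE 0.09, 95% interval -0.05 to 0.33, limma adjusted p = 0.996). In females it averaged 10.86 ± 0.12 (n = 6) on arrays labelled knockdown and 10.73 ± 0.11 (n = 5) on controls (SD). That difference was 0.13 (SE 0.09, 95% interval -0.06 to 0.33, exact permutation p = 0.0844, limma adjusted p = 0.892). With 462 possible splits of the females and 924 of the males, the smallest two-sided p either exact test can give is 0.002165. Averaged over both sexes it stood at 0.14 (95% interval 0.00 to 0.27, SE 0.07), or 9.95% more signal in the arrays labelled knockdown. Its unadjusted p in limma was 0.0480, rank 895 among the 22180 genes with a probe set of their own. Its adjusted p was 0.980, and 2.59% of the 41345 probe sets were higher at an unadjusted p under 0.05. The male difference moved with the medium spiny neuron markers: when their mean was added to the model, after the data had been seen, it was 0.03 in males, 0.14 in females and 0.09 in the average. Without male control replicate 6, the array with the lowest Npas2 value at 10.10, the male difference was 0.07.

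Arntl, which encodes the partner common to both pairs and holds the REV-ERB element printed above, differed by less than the spread between mice. In males its log2 intensity was 8.96 at the lowest, 9.20 at the median and 9.32 at the highest on arrays labelled knockdown, against 8.98, 9.18 and 9.25 on controls. In females it was 9.43, 9.535 and 9.77 on arrays labelled knockdown, against 9.54, 9.42, 9.58, 9.47 and 9.56 on the 5 controls. In each sex 3 of the 6 arrays labelled knockdown lay above the control mean and 3 below it, so the values showed no side. The male arrays labelled knockdown reached past the controls at both ends, with 3 above every control and 1 below every control. At least 3 arrays above every control were found for 6.65% of probe sets in males.

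The Arntl means were 9.18 ± 0.13 in males labelled knockdown and 9.15 ± 0.11 in male controls, and 9.57 ± 0.12 in females labelled knockdown and 9.51 ± 0.07 in female controls (SD). The difference was 0.03 in males (SE 0.07, 95% interval -0.11 to 0.17, exact permutation p = 0.699) and 0.06 in females (SE 0.07, 95% interval -0.09 to 0.20, exact permutation p = 0.396). In the average of both sexes it was 0.04 (SE 0.05, 95% interval -0.06 to 0.14, limma adjusted p = 0.980), and the interval corresponds to a change in signal of -3.84% to 10.5%. An increase of Arntl above 10.5% and a decrease beyond -3.84% thus lay outside the interval. The sign of the male difference was not settled: it was -0.01 with the cortical marker mean in the model, and -0.003 without male control replicate 5. Without female knockdown replicate 4, which had the highest Arntl value at 9.77, the female difference was 0.02.

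Clock, the other partner of BMAL1, had the smallest spread of the 3. In males its log2 intensity was 10.87 at the lowest, 10.925 at the median and 10.99 at the highest on arrays labelled knockdown, against 10.83, 10.915 and 10.99 on controls, and every knockdown value lay within the control range. In females it was 11.07, 11.13 and 11.20 on arrays labelled knockdown, against 11.11, 10.98, 11.12, 11.10 and 11.12 on the 5 controls. There, 4 of the 6 arrays labelled knockdown lay above every control, and the other 2 lay within the control range. At least 3 arrays above every control, a looser criterion, were found for 16.1% of probe sets in females. The share with at least 4 was not computed.

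The difference of Clock was 0.02 in males (SE 0.04, 95% interval -0.06 to 0.11, exact permutation p = 0.487) and 0.04 in females (SE 0.04, 95% interval -0.05 to 0.13, exact permutation p = 0.275). The average over both sexes was 0.03 (SE 0.03, 95% interval -0.03 to 0.09, limma adjusted p = 0.980), an interval of -1.93% to 6.72% in signal. The female difference was 0.01 without control replicate 2, whose 10.98 stood apart from the other 4 controls.

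The direction that the 3 genes shared was not tested. All 3 were higher in the arrays labelled knockdown in males, in females and in the average. Taken singly, 49.9%, 53% and 52% of all probe sets were higher in the same comparisons. How often 3 genes share a direction in both sexes was not computed. No activator separated its groups, and the share of probe sets whose groups did not overlap was 0.109% in males and 0.588% in females.

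**Figure D2:**
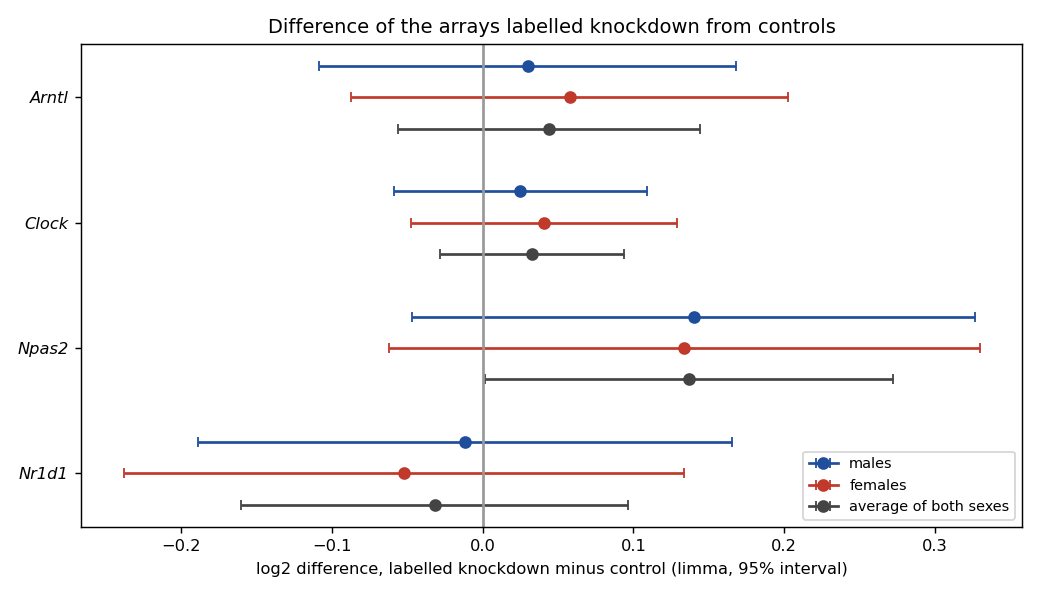
Log2 difference of the arrays labelled knockdown from controls (horizontal axis) for Arntl, Clock, Npas2 and Nr1d1, with 95% intervals from limma, for males, for females and for the average of both sexes. The intervals of Arntl, Clock and Nr1d1 include 0 throughout, and that of Npas2 clears 0 only in the average, before adjustment over 41345 probe sets.

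The male and the female difference were also compared directly. Male minus female, the knockdown difference itself differed by 0.01 for Npas2 (SE 0.13, 95% interval -0.26 to 0.28), by -0.03 for Arntl (SE 0.10, 95% interval -0.23 to 0.17) and by -0.02 for Clock (SE 0.06, 95% interval -0.14 to 0.11). The limma adjusted p was 0.998 for Npas2 and 0.991 for the other two. In this comparison 0% of the 41345 probe sets passed the adjusted threshold and 5.7% had an unadjusted p under 0.05. The signs of all 3 values changed under other settings given in the closing section.

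As deposited, the levels of the activators were lower in males than in females, and so were the medians of the arrays. Among the arrays labelled knockdown, males minus females was -0.40 for Arntl, -0.20 for Clock and -0.30 for Npas2, and among controls it was -0.37 for Arntl, -0.18 for Clock and -0.30 for Npas2. The array medians themselves differed by -0.28. After each array's median was subtracted, the control difference was -0.11 for Arntl and -0.04 for Npas2, while that of Clock turned to 0.08, and the male and female ranges of each gene overlapped.

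The rest of the clock was read from lists around the activators. Of 8 repressors 7 were measured, and 0 passed the adjusted threshold in any comparison. All 7 were higher in males labelled knockdown than in male controls, with a median difference of 0.08, against a median of 0.0033 over all 22180 genes, of which 51.6% were higher. In females 4 of the 7 were higher, with a median of 0.02, against 3e-04 over all genes. The 2 repressors with the smallest p in males were Per1, the E-box-driven period gene, at 0.17 (SE 0.07, limma adjusted p = 0.996), and Ciart, which binds and inhibits the BMAL1 and CLOCK pair, at 0.17 (SE 0.08, limma adjusted p = 0.996). Ciart was at -0.11 in females (SE 0.08, limma adjusted p = 0.901).

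Among 14 measured of 15 E-box targets, the genes that the activators switch on, 11 were higher in males, with a median of 0.07, and 6 in females, with a median of -0.01, and 0 passed the adjusted threshold. The lists share genes: these targets include every measured repressor above, Dbp, Tef and Hlf of the outputs, Nr1d1, Nr1d2 and Usp2. The counts of different lists are therefore not separate results. The 4 output factors of the PAR bZIP family and Nfil3 had a median of 0.02 in males and 0.10 in females, where Nfil3, a repressor that competes with the PAR bZIP activators, was at 0.17 (SE 0.06, limma adjusted p = 0.839). The list of 8 cofactors is mixed, since it holds genes of repression such as Hdac3 and Cipc beside coactivators. Its 7 measured genes had medians of -0.01 in males and 0.01 in females. Their smallest p belonged to the histone deacetylase Hdac3, through which REV-ERBα represses, at -0.14 in females (SE 0.05, limma adjusted p = 0.839) and at -0.01 in males (SE 0.05). The 11 relatives of the activators in the bHLH-PAS family had a median of 0.01 in males and 0.00 in females, and the 5 measured of 7 kinases and ligases of clock proteins one of 0.02 in males and -0.01 in females. The 4 measured REV-ERB and ROR receptors, Nr1d1 among them, had medians of -0.04 in males and -0.05 in females, with 3 of 4 lower in each sex.

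The relation of each activator to Nr1d1 was examined within groups, as the correlation of deviations from the group means, which removes any difference between hairpins or sexes. Both genes of a pair are read from the same array, so anything that shifts a whole array enters both. Over all 23 arrays, Npas2 was higher where Nr1d1 was higher (Pearson r = 0.67, permutation p = 0.00451, Spearman rho = 0.65), and r was 0.68 without the 2 arrays farthest from the median of Nr1d1. Adjusted over the 18 relations of this kind, the p was 0.0527 for r and 0.09 for rho, so the relation did not pass the threshold. It passed without female knockdown replicate 4 (r = 0.73, adjusted permutation p = 0.0410) or replicate 6 (r = 0.71, adjusted permutation p = 0.0259). Arntl had r = -0.24 (rho = -0.22, adjusted permutation p = 0.622), which turned to 0.07 without the 2 farthest arrays, and Clock had r = 0.07 (rho = 0.02, adjusted permutation p = 0.829). No inverse relation to the RNA of their repressor was detectable for any of the 3 activators with 23 arrays.

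Split by sex, Npas2 had r = 0.80 in the 12 male arrays (rho = 0.59, permutation p = 0.00585, adjusted p = 0.0527, and r = 0.64 without the 2 farthest) and r = 0.35 in the 11 female arrays (rho = 0.42, adjusted permutation p = 0.622). The difference between these values was not tested. Within single groups of 6 arrays, r was 0.83 in males labelled knockdown (exact permutation p = 0.0611), 0.79 in male controls (exact permutation p = 0.0750) and 0.42 in females labelled knockdown (exact permutation p = 0.394). The value in male controls rested on replicates 3 and 5, whose Nr1d1 of 9.84 and 9.85 and Npas2 of 10.70 and 10.66 were the highest of that group, and it was -0.51 without them. The 5 female controls were too few for a correlation of their own.

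Arntl and Clock gave no such order within groups. For Arntl, r with Nr1d1 was 0.26 in males labelled knockdown, -0.62 in male controls and -0.39 in females labelled knockdown. For Clock it was -0.45 in males labelled knockdown, 0.12 in male controls and 0.53 in females labelled knockdown. The adjusted permutation p lay at 0.622 or above for all 6 of these values.

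**Figure D3:**
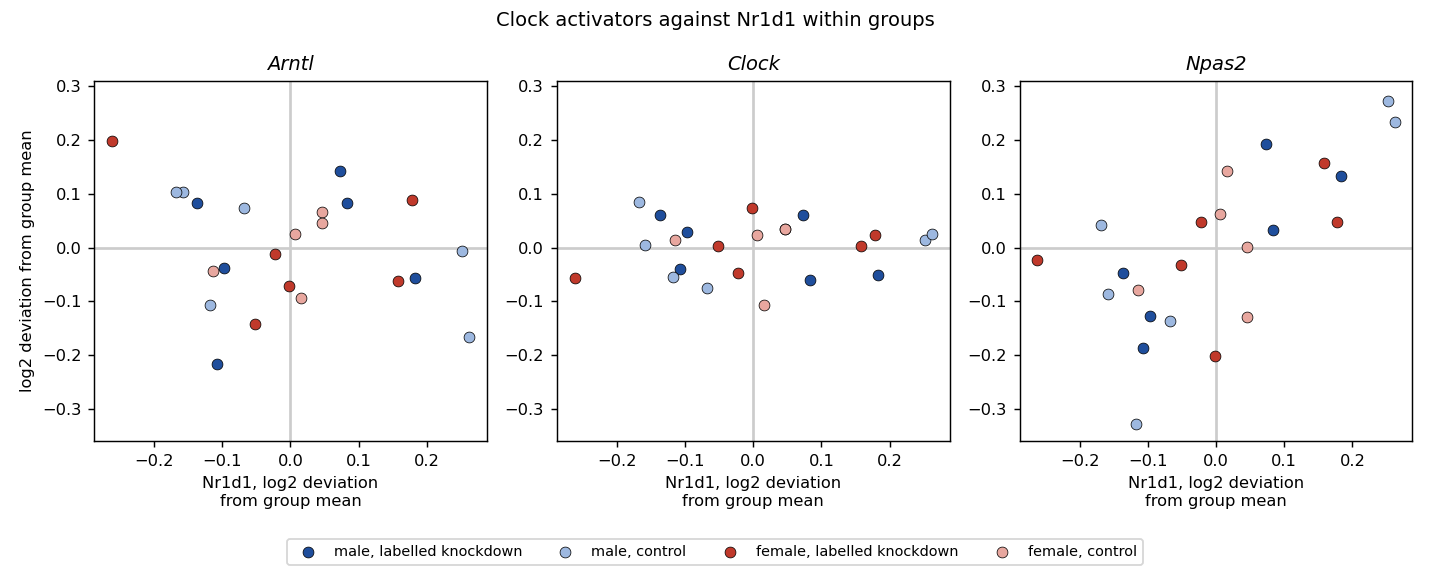
Deviation of Arntl, Clock and Npas2 from the group mean (vertical axes, log2) against that of Nr1d1 (horizontal axes, log2), with 1 point per array and colour for the group. The points of Npas2 run upward with r = 0.67, while those of Arntl and Clock show no clear slope, with r of -0.24 and 0.07.

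The correlations among the 3 activators were weak. Over the 23 arrays r was 0.20 between Arntl and Clock, 0.11 between Arntl and Npas2, and 0.07 between Clock and Npas2, all within groups. Nr1d1 ranked 207 of 11089 genes by its likeness to Npas2, 4424 by its likeness to Clock and 9059 by its likeness to Arntl, among genes with a mean at or above the median of all genes. These ranks describe the same 23 arrays and are no test.

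Within groups, Npas2 varied with the level of striatal neuron markers. Its r with the mean of the medium spiny neuron list was 0.75 (permutation p = 0.00045, Spearman rho = 0.76), with adjusted p-values of 0.0335 for r and 0.0409 for rho over a family of 141 relations. It was 0.74 in male and 0.78 in female arrays, and 0.76 without the 2 arrays farthest from the median of the list. All 9 measured markers correlated positively with Npas2, with a median r of 0.67. The highest was Drd2, the dopamine receptor of the indirect-pathway neurons, at 0.82, followed by the orphan receptor Gpr6 at 0.76, the phosphodiesterase Pde10a at 0.75 and the G-protein regulator Rgs9 at 0.75. The enkephalin precursor gene Penk was at 0.67, and the lowest was Drd1, the dopamine receptor of the direct-pathway neurons, at 0.36. Without male knockdown replicate 6, the array with the lowest marker mean of its group at 10.34, r was 0.72 and its adjusted p 0.0701. The relations of Npas2 to this list and to Nr1d1 were not compared, and their p-values were adjusted over families of different size.

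Nr1d1 itself had r = 0.41 with the same list, at 0.59 in males and 0.08 in females, and 8 of the 9 markers correlated positively with it. With the list mean removed from both genes, a step added after the data had been seen, Npas2 and Nr1d1 had r = 0.60 (approximate adjusted permutation p = 0.147). No relation to the list was detected for Arntl and Clock, with r of 0.21 and -0.00. All 9 markers correlated positively with Arntl too, at a lower median r of 0.20, and 5 of the 9 with Clock.

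**Figure D4:**
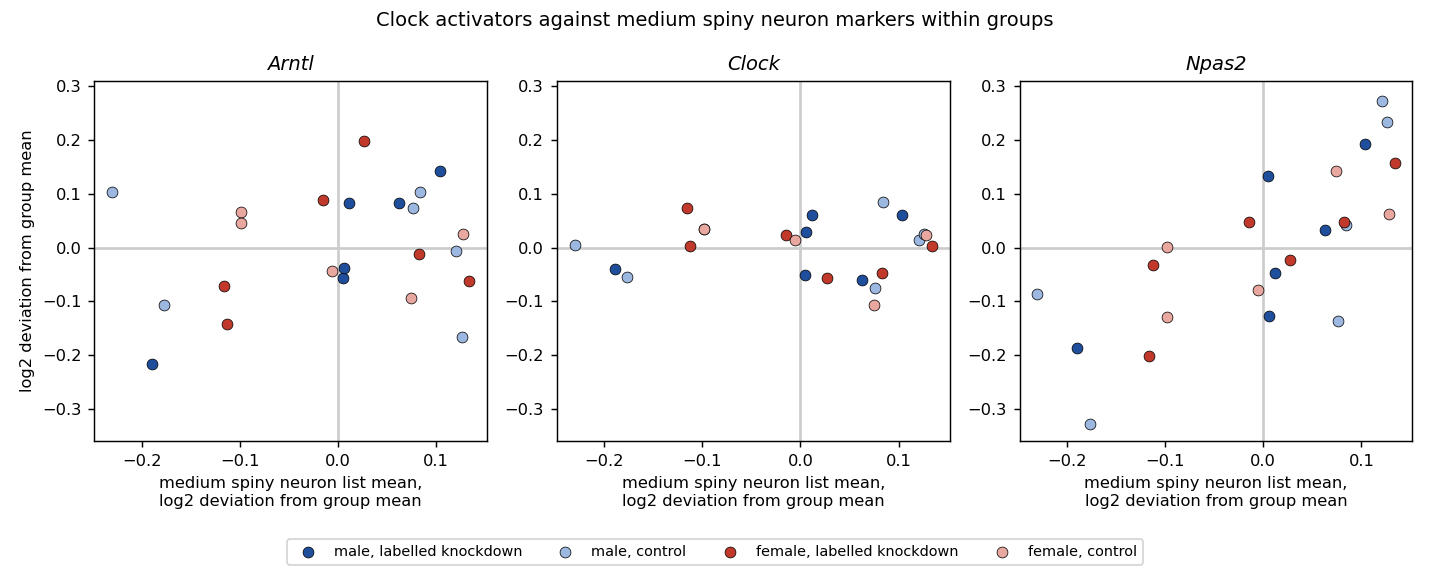
Deviation of Arntl, Clock and Npas2 from the group mean (vertical axes, log2) against the deviation of the mean of 9 medium spiny neuron markers (horizontal axes, log2), with 1 point per array and colour for the group. Npas2 rises with the markers in both sexes, with r = 0.75, while Arntl and Clock have r of 0.21 and -0.00.

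Arntl instead leaned toward the cortical markers, in males. Its r with the cortical excitatory neuron list was 0.53 over all arrays (rho = 0.47, permutation p = 0.0215, adjusted p = 0.183, and 0.45 without the 2 farthest arrays), at 0.80 in males and -0.14 in females, and the difference between the sexes was not tested. Of the 8 measured cortical markers 7 correlated positively with Arntl, led by the vesicular glutamate transporter gene Slc17a7 at 0.59, and the upper-layer marker Cux2 was at -0.46. The list ranged from 6.45 to 8.48 in the male arrays, and the part of these punches in the male Arntl values was not tested beyond the model with the list as a covariate, given above. Clock had r = 0.29 with this list and Npas2 had r = -0.11.

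Within the clock, each activator had a single relation past the adjusted threshold by Pearson's r among 38 clock genes, and by rho none of these passed. Npas2 was higher with Usp2, an E-box-driven deubiquitinase gene that acts on clock proteins (r = 0.75, adjusted permutation p = 0.0335, rho = 0.60, adjusted p = 0.173), at 0.84 in males and 0.39 in females. Clock was higher with Ep300, the acetyltransferase that the activators recruit (r = 0.70, adjusted permutation p = 0.0335, rho = 0.61, adjusted p = 0.173), at 0.61 in males and 0.82 in females. Arntl was lower with its paralog Arntl2 (r = -0.66, adjusted permutation p = 0.0335, rho = -0.70, adjusted p = 0.0712), at -0.58 in males and -0.83 in females. Without the 2 arrays farthest from the median of the partner gene, r was 0.61 for Usp2, 0.57 for Ep300 and -0.62 for Arntl2, and the adjusted p exceeded the threshold in each case. Leaving out single arrays lost the call for Usp2 in 4 of 23 runs, those without female control replicate 2, male control replicates 3 and 6 or male knockdown replicate 6, with r of 0.64 to 0.74. It was lost for Ep300 in 7 runs, those without female control replicate 2, female knockdown replicates 1 and 4, male control replicates 1, 4 and 6 or male knockdown replicate 5, with r of 0.63 to 0.71. For Arntl2 it was lost in 16 runs, with r of -0.66 to -0.58, and held without female control replicates 1, 4 and 5, male control replicate 4 or male knockdown replicates 2, 3 and 6.

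Read by role, Arntl had positive values throughout the measured repressors. It correlated positively with all 7 measured repressors, with a median r of 0.18, led by Cry1 at 0.53 and Cry2 at 0.46, and with 11 of 13 E-box targets, with a median of 0.27. The 7 repressors are themselves among these 13 targets. Clock correlated positively with 3 of the 7 repressors and 6 of the 13 targets, and Npas2 with 4 and 8. Over all 38 clock genes, positive values numbered 20 for Arntl, 19 for Clock and 20 for Npas2. The next relations by size did not pass the threshold: Npas2 had r = -0.70 with Sirt1, a deacetylase that acts on BMAL1 (adjusted permutation p = 0.0905), Clock had r = 0.61 with Npas1, a bHLH-PAS repressor, and Arntl had r = 0.57 with Cipc, which inhibits CLOCK (adjusted permutation p = 0.105).

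**Figure D5:**
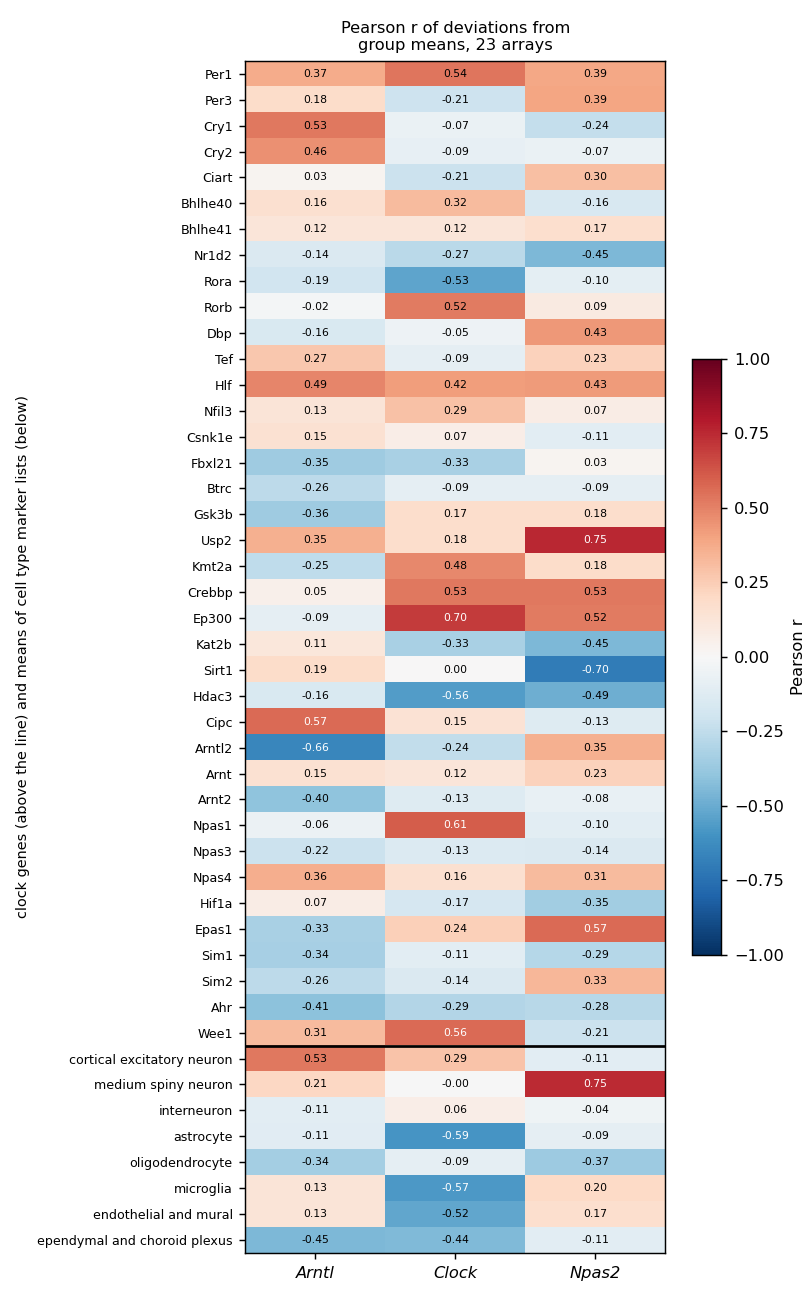
Pearson r, within groups over 23 arrays, of Arntl, Clock and Npas2 (columns) with each of 38 clock genes (rows above the line) and with the means of 8 cell type marker lists (rows below the line), where red is positive and blue negative on a scale from -1 to 1. The Npas2 column has 0.75 with Usp2 and with the medium spiny neuron list, the Clock column has 0.70 with Ep300 and the Arntl column has -0.66 with Arntl2.

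The genes most like each activator over the 23 arrays are given as a description, by r of the deviations among 11089 genes. For Npas2 they were the GTPase regulator gene Arhgap33 at 0.87, and Ndrg4, Tgfa, which encodes a ligand of the EGF receptor, the ion exchanger gene Slc24a4 and the postsynaptic scaffold gene Dlgap4, all at 0.86. Arhgap33 had 0.90 in males and 0.77 in females. For Arntl the values ran from 0.79 for the cytoskeletal septin gene Septin11 to 0.75 for Klhl3, with Prrt3, the ribosome assembly gene Pno1 and the DNA repair gene Ercc6 between them, and Septin11 had 0.95 in males and 0.42 in females. For Clock they ran from 0.76 for Numb, an inhibitor of Notch signalling, to 0.73 for Arfgef1, with the lipid transporter gene Mfsd2a, Arhgap21 and Dffa between them, and Numb had 0.83 in males and 0.73 in females. No gene appeared among the 5 most alike of more than 1 activator.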

How the data were processed

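Total RNA of 23 nucleus accumbens micropunches was measured on whole-transcript arrays. Per the labels' protocols, 150 ng of RNA entered the GeneChip WT Plus labelling. The authors deposited 1 table of log2 probe set intensities. They list Transcriptome Analysis Console, per the submitters' processing notes, and its version and normalization were not found in the sources used here. The number of arrays limits the precision.

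Genes were read from probe sets with 1 symbol in GEO's platform annotation (23521 of 41345, with 1814 naming several and 16010 none), by the highest mean. All arrays entered 1 limma 3.58.1 model in R 4.3.3 with a mean per group (19 residual degrees of freedom, prior 3.24), adjusted by Benjamini-Hochberg over all probe sets. Exact permutation tests compared single genes within a sex. Correlations used deviations from group means, with 100000 permutations within groups or exact enumeration for 6 arrays. All tests were two-sided and were tested on simulated data. No source used here says that replicate numbers pair the mice, so the main model has no pairing. Of 11 same-numbered pairs, 4 had a correlation above 0.1, which cannot decide whether the mice were paired.

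The members, the clock lists and the marker lists were chosen with earlier results of these data known. Named genes are the activators and Nr1d1, members of those lists (chiefly those past the threshold or with the 2 smallest p per list and comparison), and the 5 genes most like each activator. Promoter windows came from RefSeq GRCm38.p6, by symbol.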

Additional observations from a re-analysis of the deposited data

Results flagged for a closer look

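In 3 places a single array stood apart from the others of its group by Dixon's test at the 95% level. Clock had 10.98 in female control replicate 2, the lowest of the 5 female controls. Nr1d1 had 9.93 in female control replicate 4, the lowest of the same group. The mean of the medium spiny neuron markers was 10.34 in male knockdown replicate 6. Both ends of 24 groups were checked, 48 checks in all, and chance passes about 1 in 20 groups.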

How the results depend on the processing

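Of 390 values of the activators' differences under alternatives, 368 kept their direction, 22 reversed and 0 passed the adjusted threshold. Many of them could not change direction, so the count overstates how firm the directions are. Leaving out an array of 1 sex does not alter the difference in the other sex. The filters of probe sets, the prior with a trend and the separate fits per sex alter only the p-values. Other than by leaving out 1 array, 7 of 114 reversed: the Arntl male difference was -0.0054 with the cortical list as a covariate; with median centring the male minus female difference was 0.006 for Arntl and 0.018 for Clock; and for Npas2 it was -0.0403 with quantile normalization, -0.0198 with array weights, -0.034 with the replicate block and -0.11 with the medium spiny neuron list as a covariate. The replicate block gave Npas2 0.14 in males, 0.17 in females and 0.16 on average (adjusted p = 0.912) and changed no call; same-numbered mice correlated at -0.279 to 0.538, best with their own number in 3 of 11 pairs.

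Leaving out 1 array at a time, Npas2 ranged over 0.0747 to 0.1947 in males, 0.1017 to 0.174 in females and 0.1042 to 0.1642 on average, Arntl over -0.0033 to 0.0733 in males, 0.018 to 0.086 in females and 0.024 to 0.0655 on average, and Clock over 0.01 to 0.042 in males, 0.0142 to 0.052 in females and 0.0196 to 0.0413 on average. The male minus female difference ranged over -0.059 to 0.061 for Npas2, -0.061 to 0.0157 for Arntl and -0.0307 to 0.0108 for Clock. Between 0 and 1 probe sets passed the adjusted threshold in males, in females and in their difference, which also had 1 with array weights, and 0 on average.

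The relation of Npas2 to Nr1d1 passed the threshold with quantile normalization (0.6639 over 23 arrays, 0.8037 in males). It also passed with the cortical list removed (0.6826 over 23 arrays, 0.8977 in males, 0.9704 in male controls). Permuting values after a list mean is removed makes no allowance for that fit, so those p-values are approximate. The relation ranged over 0.5992 to 0.7287 without single arrays, passing in 2 of 23 runs. Without the 2 arrays farthest in Nr1d1 it was -0.5066 in male controls. That setting gave Arntl 0.07364 over all arrays, 0.04039 in males, 0.2277 in females and 0.2585 in females labelled knockdown, and Clock -0.08568 over all arrays, 0.03666 in males labelled knockdown and -0.8773 in male controls. With the cortical list removed, the male values were 0.1688 for Arntl and 0.04678 for Clock; with the medium spiny neuron list removed, Arntl had -0.5993 in males labelled knockdown and Clock -0.1173 in male controls. Without single arrays, Arntl ranged over -0.3756 to -0.06121 and Clock over -0.05292 to 0.196.

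Without the 2 farthest arrays, r fell short of the threshold at 0.6064 for Npas2 with Usp2, 0.5732 for Clock with Ep300 and -0.6154 for Arntl with Arntl2, which had -0.619 after quantile normalization. Without single arrays these ranged over 0.6423 to 0.8022 for Usp2, 0.6267 to 0.7352 for Ep300 and -0.7605 to -0.5842 for Arntl2, with the call lost in 4, 7 and 16 of 23 runs, and that of Npas2 with the medium spiny neuron list over 0.6961 to 0.8085. A mean over several probe sets was not run, since each activator has 1. The cause of these changes was not tested. Groups of 5 or 6 arrays limit every comparison and signal over background was not used.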

Other observations

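The correlations of Clock with the means of 4 glial and vascular marker lists did not pass the threshold within groups. Its r was -0.59 with the mean of the astrocyte list (rho = -0.49, permutation p = 0.00569, adjusted p = 0.105), -0.57 with the microglia list (rho = -0.51, permutation p = 0.00799, adjusted p = 0.113) and -0.52 with the list of endothelial and mural cells (rho = -0.46, permutation p = 0.0164, adjusted p = 0.174). With the oligodendrocyte list r was -0.09 (rho = -0.05, adjusted permutation p = 0.827). The p-values were adjusted over the family of 141 relations. In males the values were -0.39 for astrocytes, -0.28 for microglia, -0.31 for endothelial and mural cells and -0.16 for oligodendrocytes, and in females -0.78 for astrocytes, -0.91 for microglia, -0.73 for endothelial and mural cells and 0.04 for oligodendrocytes. The difference between the sexes was not tested. Arntl had r of -0.11 with astrocytes, 0.13 with microglia, 0.13 with endothelial and mural cells and -0.34 with oligodendrocytes. Without the 2 arrays farthest from the median of each list, the r of Clock was -0.42 for astrocytes, -0.61 for microglia, -0.35 for endothelial and mural cells and -0.13 for oligodendrocytes. The share of these cells in the Clock values was not tested.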
